A study of Homo sapiens with 52 samples.

Results

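The baseline of fusion-positive rhabdomyosarcoma (FP-RMS) cells in solvent alone was described from 8 of the 52 RNA-seq samples of a study of drugs that act on chromatin. The 8 are its DMSO (solvent) controls, chosen by their titles: 4 whose titles say RH41, from the compound screen, and 4 whose titles say RH4. The RH41-titled controls were exposed for 6 h, 2 libraries to 0.2% DMSO and 2 to 0.1%. The RH4-titled controls received 0.1% DMSO, and 3 of them form a time course (1, 6 and 24 h, the time-course controls), whereas the fourth, also at 6 h, has no time in its title and is called the plain-title control. No other agent and no engineered change is named for either set. All were grown in DMEM with serum, and poly-A RNA was sequenced as read pairs. The cell-line label says RH4 for all 8 samples, while the study's methods name both RH4 and RH41 as FP-RMS lines that were treated, and which line the screen used cannot be settled from the labels. The sets are therefore named by title. Title and experiment, with the flow cell where one is named, change together between them, so their parts cannot be told apart, whereas 0.1% DMSO for 6 h occurs in 2 libraries of each set. The mixture of cells and the RNA per cell cannot be told apart in bulk RNA either.

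FP-RMS is a childhood tumour of cells committed to skeletal muscle that do not complete differentiation. It is driven by a fusion of the transcription factor PAX3 (or PAX7) with FOXO1, which works with the myogenic factors MYOD1 and MYOG, with SOX8 and with MYCN at large enhancers. Whether the sets compared here come from the same tumour or from different tumours was not tested.

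The libraries held 16772069 to 33522277 reads, worked out from the steps of the TPM values (a transcript's share of all transcripts, scaled by the authors for gene length and depth). Between 12604 and 13482 genes had a TPM of 1 or more. Libraries of one series were close to each other: over the 14093 genes kept for tests, the SD of the difference in log2(TPM + 1) was 0.261 to 0.297 between the RH41-titled controls and 0.243 to 0.277 between the time-course controls. Between an RH41-titled and a time-course control it was 0.573 to 0.602. The plain-title control stood apart. Its SD from the time-course controls of its own set was 0.75 to 0.805, larger than that between the RH41-titled and the time-course controls. From the RH41-titled controls it was 0.916 to 0.943. Results are therefore given with and without it. Replicates 1 and 2 of the RH41-titled set were on different flow cells, and over 10378 genes with 100 reads or more the variance was 3.55 times that of counting noise between the concentrations, 4.08 times between the flow cells and 1.02 times for their interaction. The replicates of a concentration thus differed, beyond a shift common to each flow cell, by no more than sampling noise and were counted as 1 unit, giving 2 units against 4. The methods speak of replicate experiments for the screen but do not say whether the samples came from separate cultures, so p-values measure the spread between these samples, which may be technical.

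**Figure D1:**
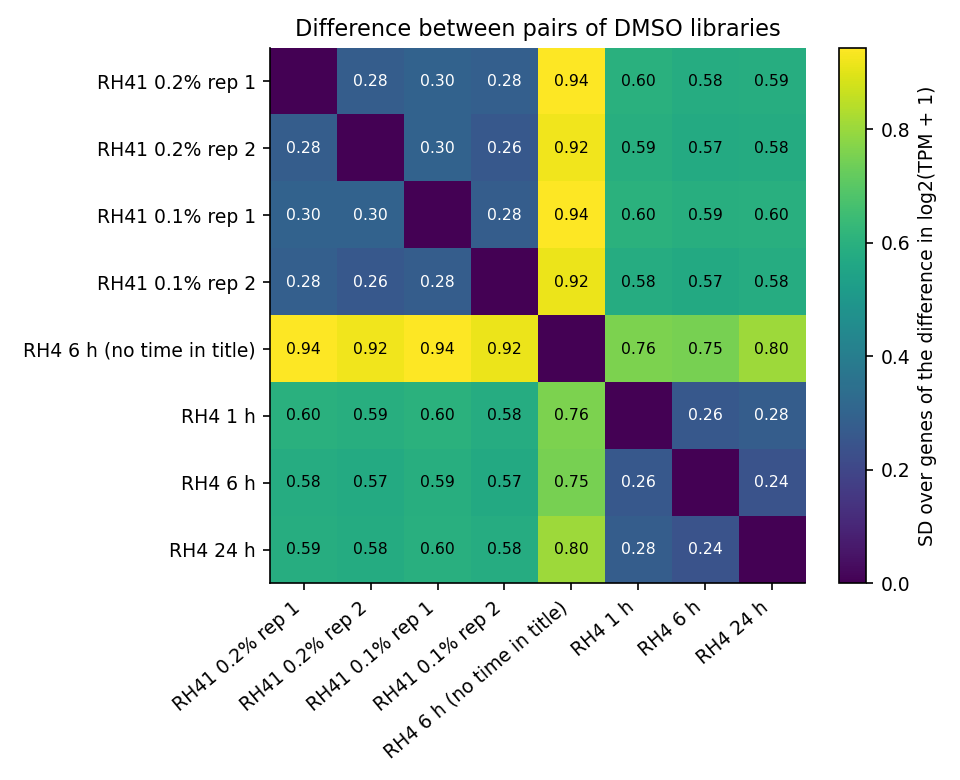
SD over 14093 genes of the difference in log2(TPM + 1) for each pair of the 8 DMSO libraries. Values within the 4 RH41-titled libraries and within the 3 time-course libraries stay below 0.30, those between these blocks lie near 0.59, and the RH4-titled library with no time in its title is 0.75 or more from every other.

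The most abundant transcripts were largely shared. Of the 100 genes with the highest mean TPM in each set, 90 were the same, and 52 of those of the RH41-titled and 54 of those of the RH4-titled set were ribosomal protein genes. The highest gene in the RH41-titled set was RPLP1, a stalk protein of the ribosome, at 5663, 5775, 5769 and 5799 TPM (0.2% replicates 1 and 2, then 0.1% replicates 1 and 2, the order used throughout). In the RH4-titled set it had 3645 TPM in the plain-title control and 5796, 5762 and 5252 TPM at 1, 6 and 24 h. The highest gene there was RPS12, a small-subunit protein, with 5879 TPM in the plain-title control and 6369 to 6490 TPM in the time course, against 3558 to 3820 TPM in the RH41-titled set. RPS12 was lower in every RH41-titled library, and the difference in log2(TPM + 1) was -0.77 ± 0.07 (SE, adjusted p = 0.00279), short of the size of 1 required for a call. The elongation factor gene EEF1A1, the cytoskeletal actin gene ACTB and the actin-binding thymosin gene TMSB10 stood among the first 15 of both sets. TMSB10 had 3409 to 3543 TPM in the RH41-titled and 4477 to 5555 TPM in the RH4-titled set (-0.52 ± 0.09, adjusted p = 0.0221).

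A gene was taken as on in one set and off in the other if it had at least 10 TPM in all 4 samples of one and at most 0.5 TPM in all 4 of the other. In all, 4 genes met this, 2 in each direction, or 0.0142% of the 14093 genes tested in each direction. Without the plain-title control 4 genes met it in the RH41-titled direction, SLCO3A1 among them. CD44, the cell-surface receptor for hyaluronan, and CAV1, the coat protein of caveolae, were on in the RH41-titled set. TAGLN2, an actin-binding protein of the transgelin family, and LRRN3, a membrane protein with leucine-rich repeats, were on in the RH4-titled set. All 4 are protein-coding, and in build hg19 they lie on chromosome 11 at 35160417 to 35253949 (CD44, plus strand), on chromosome 7 at 116164839 to 116201239 (CAV1, plus strand), on chromosome 1 at 159887897 to 159895332 (TAGLN2, minus strand) and on chromosome 7 at 110731062 to 110765509 (LRRN3, plus strand).

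The promoters of these 4 genes are shown because their transcripts are near zero in one set. Each runs from 250 bases before to 50 bases after the RefSeq start in GRCh38.p14, 5′ to 3′ on the gene's strand, and capitals mark CANNTG, the E-box core that MYOD1 and MYOG bind, searched on both strands (the motif is its own reverse complement):
CD44 (chr11:35138921-35139220, plus strand): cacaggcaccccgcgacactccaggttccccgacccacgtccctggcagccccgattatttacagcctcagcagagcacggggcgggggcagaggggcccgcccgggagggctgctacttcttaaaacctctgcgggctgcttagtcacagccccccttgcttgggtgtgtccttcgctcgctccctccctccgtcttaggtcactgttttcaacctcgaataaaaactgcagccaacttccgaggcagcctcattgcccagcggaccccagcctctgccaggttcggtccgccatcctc
CAV1 (chr7:116524759-116525058, plus strand): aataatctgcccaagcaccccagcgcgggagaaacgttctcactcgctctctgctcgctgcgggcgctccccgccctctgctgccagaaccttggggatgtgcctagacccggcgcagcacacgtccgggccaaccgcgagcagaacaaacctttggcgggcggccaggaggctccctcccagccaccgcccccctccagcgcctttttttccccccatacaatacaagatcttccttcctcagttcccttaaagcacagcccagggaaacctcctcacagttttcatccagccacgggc
TAGLN2 (chr1:159925458-159925757, minus strand): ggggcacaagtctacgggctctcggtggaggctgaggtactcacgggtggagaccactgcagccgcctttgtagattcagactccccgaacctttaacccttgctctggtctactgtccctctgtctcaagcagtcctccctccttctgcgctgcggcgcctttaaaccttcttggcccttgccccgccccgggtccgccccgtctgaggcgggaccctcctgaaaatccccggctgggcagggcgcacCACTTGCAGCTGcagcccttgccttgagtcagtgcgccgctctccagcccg
LRRN3 (chr7:111090877-111091176, plus strand): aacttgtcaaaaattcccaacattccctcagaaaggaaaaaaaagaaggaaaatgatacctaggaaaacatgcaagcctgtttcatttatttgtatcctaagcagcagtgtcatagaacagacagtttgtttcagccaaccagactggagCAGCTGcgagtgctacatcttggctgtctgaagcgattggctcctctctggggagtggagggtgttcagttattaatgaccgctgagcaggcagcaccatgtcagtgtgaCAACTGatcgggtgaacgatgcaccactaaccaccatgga
CANNTG was absent from the CD44 and CAV1 windows and occurred 2 times in each of the TAGLN2 and LRRN3 windows, and 68.7% of 35116 RefSeq promoters of this length held at least 1. In TAGLN2 the matches, at bases 250 and 256, adjoin. The CG dinucleotide occurred 18, 19, 18 and 5 times in the windows of CD44, CAV1, TAGLN2 and LRRN3, against a median of 14 over all promoters.

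CD44 had 79.5, 82.1, 87.7 and 87.0 TPM in the RH41-titled controls. The plain-title control had 0.260 TPM (15 reads), and the time course had 0.169, 0.143 and 0.202 TPM. All RH41-titled libraries lay far above all RH4-titled ones, by 6.16 in log2(TPM + 1). The rule chose the 4 genes on these values, so their differences in the controls are descriptions with no test. CAV1 had 19.9, 20.3, 20.4 and 24.0 TPM against 0.186 TPM in the plain-title control and 0.192, 0.114 and 0.241 TPM in the time course, a difference of 4.22. These RH4-titled values rest on 4 to 10 reads each. For both genes the plain-title and the time-course controls fell in one low range.

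TAGLN2 had 0.0950, 0.0761, 0 and 0.0768 TPM in the RH41-titled controls, 3 libraries with 1 read each and 1 with none. The plain-title control had 33.6 TPM and the time course had 11.5, 10.7 and 10.5 TPM (difference -3.87). LRRN3 had 0.286, 0.360, 0.131 and 0.231 TPM, against 85.3 TPM in the plain-title control and 15.1, 13.8 and 11.8 TPM in the time course (-4.18). Here the RH4-titled samples split, with the plain-title control several times above the time course. Without it the differences were -3.49 for TAGLN2 and -3.54 for LRRN3.

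The pattern was also read in the 44 treated samples, which the choice of the 4 genes did not use: 40 RH41-titled samples of 20 compounds, and 4 RH4-titled samples, N1302 at 6 h and entinostat at 1, 6 and 24 h, both inhibitors of histone deacetylases (HDACs). CD44 had 45.3 to 116 TPM (median 89.7) in the RH41-titled and at most 0.381 TPM in the RH4-titled treated samples. CAV1 had 3.16 to 35.9 TPM (median 22.5) against at most 0.393 TPM, and 33 of the 40 RH41-titled samples reached 10 TPM. TAGLN2 was at 0.275 TPM or less in all 40 RH41-titled samples and at 9.50 to 31.8 TPM in the RH4-titled ones. LRRN3 reached 1.12 TPM at most in the 40 and had 12.9 to 31.0 TPM in the 4. No range overlapped between the titles. The N1302 sample, on the same flow cell as the plain-title control, had 31.8 TPM of TAGLN2, close to that control, but 14.7 TPM of LRRN3, close to the time course. Between 20 compound means and the 4 samples, the differences were 5.99 ± 0.16 for CD44, 3.98 ± 0.33 for CAV1, -4.13 ± 0.16 for TAGLN2 and -3.67 ± 0.17 for LRRN3. Adjusted p-values with limma were 1.17e-09 or less, and with only the 5 HDAC-directed compounds the differences were 5.90, 3.84, -4.09 and -3.61. These p-values measure the spread between compounds of the screen and between the 4 samples, and not between repeats of a title. The treated samples come from the same experiments as the controls, so they are not an independent check of the title difference.

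**Figure D2:**
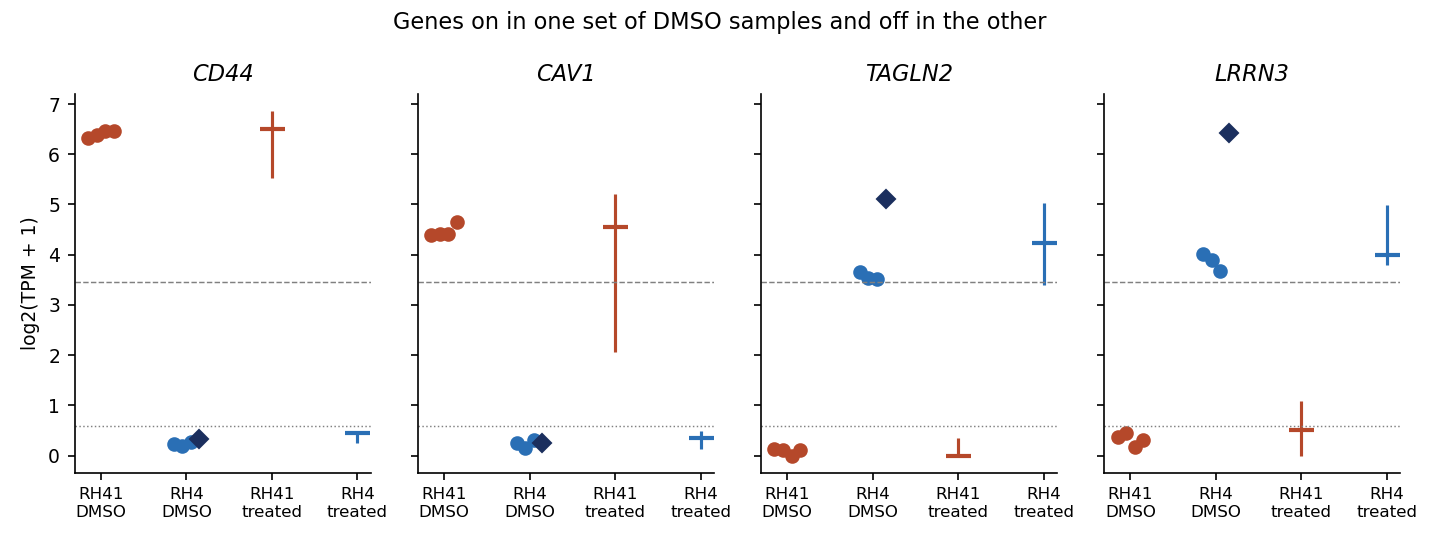
Log2(TPM + 1) of CD44, CAV1, TAGLN2 and LRRN3. Circles are single DMSO libraries and the diamond is the RH4-titled control with no time in its title. Vertical lines span the lowest to the highest of the 40 RH41-titled and 4 RH4-titled treated samples, with a tick at the median, and the dashed and dotted lines mark 10 and 0.5 TPM. In all 4 genes the RH41-titled and RH4-titled ranges stay apart.

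Several genes missed the limits narrowly. TMEM98, a membrane protein, had 45.1 to 50.6 TPM in the RH41-titled set and 0.107 to 0.536 TPM in the RH4-titled set. The organic anion transporter gene SLCO3A1 had 10.3 to 10.8 TPM against 0.321 to 0.546 TPM, and the pseudogene MEIS3P1 had 6.62 to 8.49 TPM against at most 0.0697 TPM. On the other side, GP6, the collagen receptor of platelets, had 0.202 to 0.504 TPM against 29.2 to 32.8 TPM. SERPINB2, an inhibitor of plasminogen activators, had at most 0.227 TPM against 8.99 to 22.9 TPM, and the pentraxin gene NPTX2 had at most 0.494 TPM against 8.75 to 11.2 TPM. With only 2 members on each side, the members and these 6 together make up the whole edge of the rule.

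Across all genes, 440 were higher (3.12% of those tested) and 263 lower (1.87%) in the RH41-titled set at an adjusted p below 0.05 and a difference of at least 1 in log2(TPM + 1), 703 genes or 4.99% in all. Without the plain-title control the counts were 557 (3.95%) and 363 (2.58%), 6.53% in all, and 379 and 242 of the genes were called both with and without it. The total was 463 without the 1 h and 415 without the 6 h time-course control, and 0 with only the 6 h RH4-titled controls, where 3032 genes had an unadjusted p below 0.05. The median difference of all genes was 0.16. After median-ratio scaling of the libraries the calls were 332 higher and 309 lower, so that 51.8% instead of 62.6% of the calls were higher.

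The genes with the largest differences that held with and without the plain-title control were chosen after their values were seen. Higher in the RH41-titled set were PKP1, a plaque protein of desmosomes (211 to 235 TPM against 37.9 TPM in the plain-title control and 4.002 to 4.953 TPM in the time course), and DBX1, a homeobox factor of the neural tube (180 to 188 TPM against 3.37 to 11.8 TPM). STATH, a salivary secreted peptide, had 98.9 to 114 TPM against 3.32 to 7.32 TPM. OLFM1, a secreted olfactomedin-domain protein, had 42.6 to 47.0 TPM against 1.55 to 3.01 TPM. CRMP1, a microtubule regulator of axon growth, had 461 to 501 TPM against 40.02 to 59.16 TPM (3.38 ± 0.17, adjusted p = 0.000854), and NGFR, the low-affinity neurotrophin receptor, had 802 to 923 TPM against 74.5 to 149 TPM (2.88 ± 0.28, adjusted p = 0.00346). The BMP antagonist GREM1 had 196 to 203 TPM against 57.0 TPM in the plain-title control and 10.9 to 13.8 TPM in the time course. The matrix genes FBLN5 (40.4 to 47.8 TPM against 3.70 to 6.61 TPM) and COL1A1 (89.7 to 102 TPM against 6.17 to 8.48 TPM) also belonged to this group. For every one of these genes the sets did not overlap, which held for 32.2% of all genes in this direction and 13.9% in the other.

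Lower in the RH41-titled set, outside chromosome X, were GP6 (-4.57 ± 0.14) and the endothelin receptor gene EDNRA, at 0.470 to 0.860 TPM against 26.7 to 28.9 TPM (-4.14 ± 0.13, adjusted p = 0.000153 for both). The matrix metalloproteinase gene MMP3 had 2.11 to 3.29 TPM against 16.9 TPM in the plain-title control and 53.1 to 59.2 TPM in the time course. The metallothionein gene MT1X had 1.21 to 3.35 TPM against 13.3 to 38.4 TPM. LAPTM5, a lysosomal protein best known from blood cells, had 10.9 to 14.4 TPM against 233 TPM in the plain-title control and 53.5 to 59.6 TPM in the time course (-2.55 ± 0.62, adjusted p = 0.0471). APOBEC3B, a cytidine deaminase, had 1.88 to 3.17 TPM against 14.3 to 40.2 TPM. HENMT1, which methylates small RNAs of the germline, had 3.48 to 5.82 TPM against 25.7 to 30.4 TPM. Where the RH4-titled controls differed among themselves, as for LAPTM5 and MMP3, all of them still lay outside the RH41-titled range.

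Chromosome X held a large share of the genes that were lower in the RH41-titled set. Of the 263 genes called lower, 141 were on X, 31.8% of its 443 tested genes, against 0.894% of 13649 genes elsewhere. Only 3 X genes were called higher. Without the plain-title control 154 of the 363 genes called lower were on X, and 3 X genes were called higher. The summed TPM of the X genes was 18760 to 19166 in the RH41-titled and 37322 to 41228 in the RH4-titled controls.

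The difference was much larger on one side of the chromosome than on the other. Genes with a mean TPM of 10 or more were split at the longest run of unknown bases in the hg19 X sequence (58582013 to 61682012), which spans the centromere; the split and the 40 chromosome sides were chosen after the values were seen. The 102 genes before this gap had a median difference of -0.09, with 3 called lower and none higher. The 185 genes after it had a median of -1.23 (quartiles -1.44 and -0.92), 177 of them lay below 0, and 120 were called lower and 1 higher. In bins of 20 Mb the median was -0.01 between 40 and 60 Mb and -1.27 between 60 and 80 Mb, and every later bin lay between -0.91 and -1.29. Without the plain-title control the medians were -0.22 before and -1.15 after the gap, against 0.12 over all genes of this abundance. The median thus lay below 0 in every bin of the long arm, although the bin from 80 to 100 Mb held 6 genes with 1 called lower. Whether the shift was of even size along the arm was not tested.

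**Figure D3:**
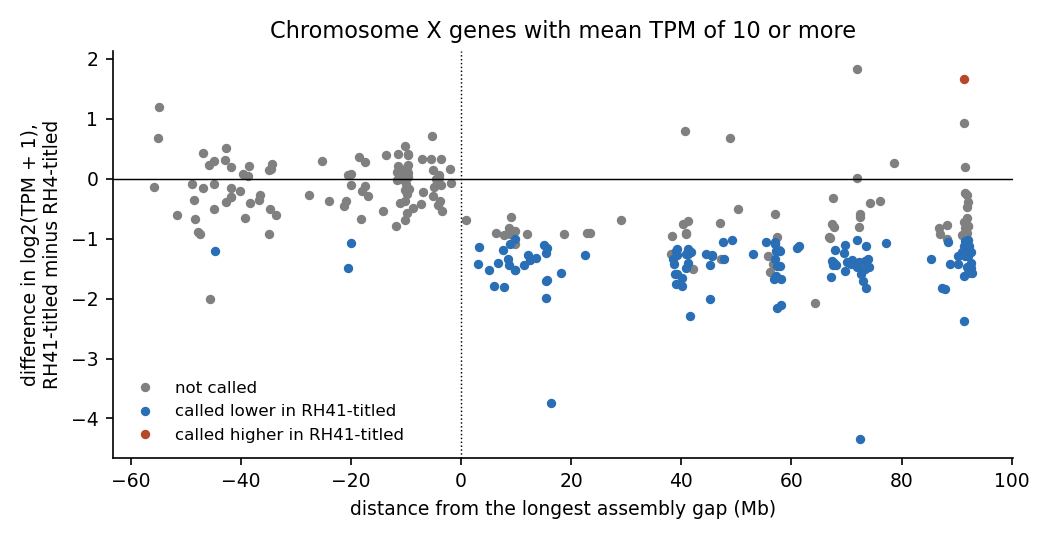
Difference in log2(TPM + 1) between the RH41-titled and RH4-titled controls for chromosome X genes with a mean TPM of 10 or more, by distance in Mb from the longest assembly gap (0). Blue genes were called lower, the red gene higher and grey genes neither. The 102 genes to the left scatter around a median of -0.09 and the 185 to the right around -1.23.

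Several housekeeping genes of the long arm, chosen after their values were seen, are given next. RPL10, a protein of the large ribosomal subunit, had 634, 595, 637 and 596 TPM in the RH41-titled controls. In the RH4-titled set it had 1508 TPM in the plain-title control and 1832, 1807 and 1724 TPM in the time course (-1.48 ± 0.10, adjusted p = 0.00135). COX7B, a subunit of cytochrome c oxidase, had 280 to 289 TPM against 1061 to 1235 TPM (-1.996 ± 0.081, adjusted p = 0.000329). NDUFA1, of respiratory complex I, had 144 to 173 TPM against 622 to 725 TPM, and SSR4, of the translocon at the endoplasmic reticulum, had 106 to 113 TPM against 531 to 612 TPM (-2.37 ± 0.09, adjusted p = 0.000277). The glycolytic enzyme gene PGK1 had 265 to 278 TPM against 781 to 1114 TPM (-1.70 ± 0.15, adjusted p = 0.00281), and the purine salvage gene HPRT1 had 42.0 to 50.4 TPM against 116 to 163 TPM (-1.48 ± 0.16, adjusted p = 0.0045). RPS4X, the most abundant X transcript, had 2277 to 2341 TPM against 4001 to 4794 TPM, a difference of -0.87 ± 0.09 that was not large enough for a call. In each case the sets did not overlap, and the range within each set was smaller than the gap between them. Other abundant genes of the arm, also chosen after their values were seen, differed less. NONO had a difference of -0.92, RBMX of -0.40 and HCFC1 of 0.19, none of them called.

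Further along the arm, the 25 neighbouring genes with the lowest median of any stretch (-1.39) ran from AIFM1, a mitochondrial flavoprotein, to FHL1, a LIM-domain protein of muscle, at 129263338 to 135293518, and 19 of them were called lower. The heparan sulphate proteoglycan GPC3 lay among them (26.4 to 28.9 TPM against 64.6 to 80.5 TPM), as did FAM127C, whose levels were 2.46 to 3.37 TPM against 70.4 to 85.6 TPM (-4.35 ± 0.13, adjusted p = 0.000153). FAM127C belongs to a family of near-identical copies, so its reads may be split among them. LPAR4, a receptor for lysophosphatidic acid, had 1.68 to 1.93 TPM against 31.6 to 45.6 TPM. A few long-arm genes went the other way. SRPK3, a muscle kinase of splicing factors, had 57.7 to 66.6 TPM against 16.2 to 20.3 TPM (1.67 ± 0.13, adjusted p = 0.00207), and DCX, a microtubule protein of migrating neurons, had a difference of 0.67 that was not called.

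The treated samples gave the same split. Relative to autosomal genes and to the mean of the 8 controls, the median of the long-arm X genes was -0.69 to -0.65 in the RH41-titled and 0.59 to 0.88 in the RH4-titled controls. It was -1.01 to -0.56 in the 40 RH41-titled treated samples and 0.51 to 0.62 in the 4 RH4-titled treated samples, so that the 52 samples fell into separate ranges by title. For genes before the gap the RH41-titled controls had -0.16 to -0.10 and the RH4-titled controls -0.07 to 0.22, which did not overlap. The ranges of treated samples met there, with -0.47 to 0.02 against -0.23 to 0.23. In the fit of 20 compound means the long-arm median was -0.97, and it was -1.03 with the 5 HDAC-directed compounds alone.

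Base composition moved with the plain-title control, and its values stand beside these results. With 8892 of the 9407 genes of mean TPM 10 or more ordered by the GC content of their longest transcript and split into 5 bins of equal size, the median difference between that control and the time course went from 0.36 in the lowest bin to -0.67 in the highest. The difference between the sets rose from -0.04 to 0.46, and from 0.04 to 0.27 without the plain-title control. Within these bins, X genes had medians of -1.11, -1.07, -1.14, -0.44 and -0.31, from low to high GC, against -0.03, 0.03, 0.11, 0.26 and 0.47 for all other genes, so X lay lower in each. The part of base composition in single genes was not tested.

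Smaller shifts covered parts of other chromosomes. Genes after the gap of chromosome 15 had a median of 0.44 (0.45 without the plain-title control, 0.62 in the treated samples), and those after the gap of chromosome 9 had 0.41 (0.39 and 0.47). Genes before the gap of chromosome 16 had 0.41, which fell to 0.22 without the plain-title control. Below zero lay chromosome 6 after the gap (-0.19) and chromosome 4 after the gap (-0.19, and -0.16 without the plain-title control). In the treated samples these were at 0.07 and -0.08, where the median of all genes tested was 0.22, against 0.16 in solvent. Chromosomes 1 and 17 after the gap (0.50 and 0.49) and 16 before it (0.45) lay near chromosome 9 in the treated samples. Chromosome 11 held opposite stretches on one arm: 25 genes from NUDT22 to FAU, at 63993730 to 64889672, had a median of 0.79 and all lay above 0, and 25 genes from EI24 to ACAD8, at 125439283 to 134135746, had a median of -0.59 with 22 below 0. The first stretch includes VEGFB and the menin gene MEN1.

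**Figure D4:**
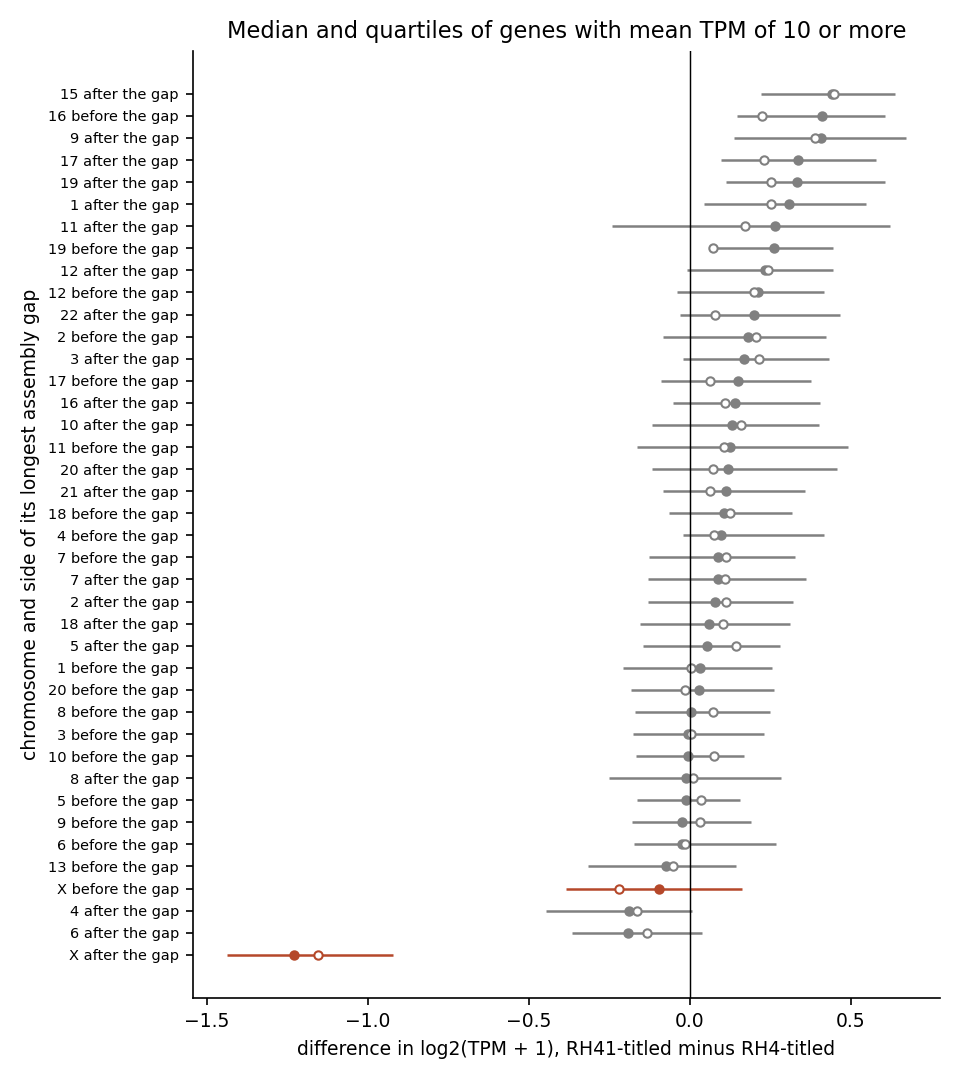
Median difference in log2(TPM + 1), RH41-titled minus RH4-titled, for genes with a mean TPM of 10 or more on each side of the longest assembly gap of a chromosome (filled circles, with lines from the lower to the upper quartile) and the median without the RH4-titled control with no time in its title (open circles), with X in red. Sides with at least 20 genes are drawn. X after the gap lies at -1.23, and the others lie between -0.19 and 0.44.

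The stretch with the largest rise on chromosome 15 ran through its imprinted cluster. NDN, a growth-restraining member of the MAGE family expressed from the paternal copy, had 36.3, 40.8, 38.7 and 40.9 TPM in the RH41-titled controls, 1.99 TPM in the plain-title control and 5.10, 5.57 and 5.30 TPM in the time course (2.94 ± 0.35, adjusted p = 0.00623). IPW, a non-coding RNA of the cluster, had 15.5 to 18.9 TPM against 0.641 to 2.53 TPM (2.76 ± 0.32, adjusted p = 0.0058), and MKRN3 had 3.19 to 4.09 TPM against 0.147 to 0.805 TPM. MAGEL2, between MKRN3 and NDN, had 28.4 to 33.7 TPM against 3.13 TPM in the plain-title control and 15.9 to 19.9 TPM in the time course, and it was not called. Over the 13 tested genes of the imprinted list, which holds neither IPW nor MKRN3, 2 were called higher and none lower. Over all genes 3.12% were called higher and 1.87% lower. Besides NDN, the call on the list was GRB10, an adaptor of insulin and growth factor receptors (52.98 to 55.73 TPM against 21.6 to 29.4 TPM, 1.16 ± 0.15, adjusted p = 0.00842).

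The muscle identity of the samples was checked on markers. MYOD1, MYOG, the desmin gene DES, the acetylcholine receptor genes CHRNA1 and CHRNG and the cadherin gene CDH15 were expressed in all 8 controls, while MYF5 and MYF6 stayed at 0.368 TPM or less. Epithelial, endothelial and blood cell markers were near zero: EPCAM reached 0.143 TPM, PECAM1 0.268 TPM and PTPRC 0.165 TPM at most in any control. Some fibroblast and neuronal markers, described below, were abundant. The summed TPM of 17 fibroblast markers was 5237 to 5332 in the RH41-titled and 2747 to 3939 in the RH4-titled set. That of 15 neuronal markers was 333 to 341 and 255 to 456. The summed TPM of 12 epithelial markers was 2.28 to 3.75 in the RH41-titled and 2.00 to 3.53 in the RH4-titled set, that of 8 endothelial markers 3.23 to 4.12 and 1.28 to 2.26, and that of 9 blood cell markers 3.66 to 4.50 and 2.52 to 3.59.

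The core regulatory factors that the study names, and FOXF1, which was added to them here, were expressed in both sets. Of these 6, 1 was called higher in the RH41-titled set and none lower, with a median difference of 0.79 against 0.16 over all genes. MYOD1, which commits cells to muscle, had 647, 641, 640 and 648 TPM in the RH41-titled controls. It had 249 TPM in the plain-title control and 346, 405 and 367 TPM in the time course. The sets did not overlap, and the difference was 0.94 ± 0.19 (adjusted p = 0.0315), just under the size for a call. PAX3, whose count would include reads from its part of the fusion, had 38.6 to 43.9 TPM against 12.4 TPM in the plain-title control and 21.1 to 22.2 TPM in the time course (1.09 ± 0.25, adjusted p = 0.0432). It was the factor called (3.12% of all genes were called higher), and without the plain-title control its difference was 0.89 ± 0.07 (adjusted p = 0.000114), below the size for a call. FOXF1, a forkhead factor of mesoderm, had 104 to 115 TPM against 17.3 TPM in the plain-title control and 53.3 to 58.8 TPM in the time course (1.35 ± 0.51, adjusted p = 0.137). SOX8 had 664 to 707 TPM against 305 to 499 TPM, and MYCN had 53.3 to 57.5 TPM against 29.4 to 50.4 TPM, neither called. MYOG, which drives terminal differentiation, had 572 to 587 TPM, above the 391 TPM of the plain-title control and within the 546 to 633 TPM of the time course. It was the one core factor for which the sets overlapped. The plain-title control had the lowest value of all 8 for each of the 6.

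Other regulators of the lineage moved less. Among 25 tested myogenic regulators, 1 was called higher and none lower (median 0.33), against 3.12% and 1.87% of all genes. It was NFIX, which switches muscle from its embryonic to its fetal programme, at 43.8 to 50.5 TPM against 22.0 to 23.2 TPM (1.02 ± 0.10, adjusted p = 0.00325). TBX1, a factor of pharyngeal muscle, had 52.9 to 57.6 TPM against 6.50 TPM in the plain-title control and 23.3 to 25.4 TPM in the time course, and was called only without the plain-title control (1.13 ± 0.06). Of 14 tested markers of fusion-positive tumours, 0 were called with limma (median 0.71). Without the plain-title control 2 were called higher, against 3.95% of all genes. FGFR4, a receptor kinase that the fusion activates, had 904 to 981 TPM against 389 to 677 TPM, ALK had 36.4 to 38.2 TPM against 7.37 to 21.1 TPM, and the neuronal nitric oxide synthase gene NOS1 had 23.7 to 27.3 TPM against 1.304 to 9.722 TPM (2.01 ± 0.63, adjusted p = 0.091). Those called without that control were NOS1 (1.5 ± 0.11, adjusted p = 9.9e-05) and the cannabinoid receptor gene CNR1 (1.46 ± 0.13). The sets did not overlap for 10 of the 14 in the higher direction, against 32.2% of all genes. Of 9 markers of fusion-negative tumours, 1 was called lower, against 1.87% of all genes, and none higher. It was HMGA1, an architectural chromatin protein (-1.56 ± 0.35, adjusted p = 0.0387). HMGA1 had 14.8 to 17.8 TPM against 28.2 TPM in the plain-title control and 57.1 to 68.9 TPM in the time course. Without the plain-title control the receptor kinase gene EGFR was also called, as higher, at 12.1 to 13.1 TPM against 4.47 to 5.56 TPM in the time course (1.18 ± 0.11), while the plain-title control had 11.9 TPM.

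Of 25 tested sarcomere genes, 2 were called lower, against 1.87% of all genes, and none higher. The median was -0.30, and 9 of the 25 had a difference above 0. MYLPF, a regulatory light chain of fast fibres, had 16.0, 17.3, 20.4 and 19.2 TPM in the RH41-titled controls, 215 TPM in the plain-title control and 68.4, 74.4 and 79.2 TPM in the time course (-2.35 ± 0.48, adjusted p = 0.0296). TNNI2, the inhibitory troponin of fast fibres, had 13.4 to 16.5 TPM against 30.8 to 45.0 TPM (-1.25 ± 0.17, adjusted p = 0.010). The light chain gene MYL1 had 4.98 to 7.37 TPM against 200 TPM in the plain-title control and 14.8 to 19.3 TPM in the time course, so that it was called only without that control (-1.41 ± 0.14). For TNNC1, the calcium-binding troponin of slow and cardiac muscle, the plain-title control alone was high, at 53.3 TPM against 2.48 to 5.23 TPM in the other 7. The largest sarcomere values of MYLPF, MYL1, TNNC1, TNNC2 and MYBPH were all those of the plain-title control.

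CHRNA1, the alpha subunit of the muscle acetylcholine receptor, had 723 to 749 TPM in the RH41-titled and 765 to 1116 TPM in the RH4-titled set. Of 11 tested genes of the neuromuscular junction, 1 was called higher and none lower (median 0.48), against 3.12% and 1.87% of all genes. It was DOK7, the adaptor that activates the receptor kinase MUSK, at 72.3, 71.8, 80.1 and 84.9 TPM against 11.0 TPM in the plain-title control and 26.7, 25.2 and 24.97 TPM in the time course (1.84 ± 0.36, adjusted p = 0.0275). RAPSN, which clusters the receptors, had 316 to 336 TPM against 143 to 218 TPM (0.82 ± 0.17, adjusted p = 0.0326), below the size for a call.

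**Figure D5:**
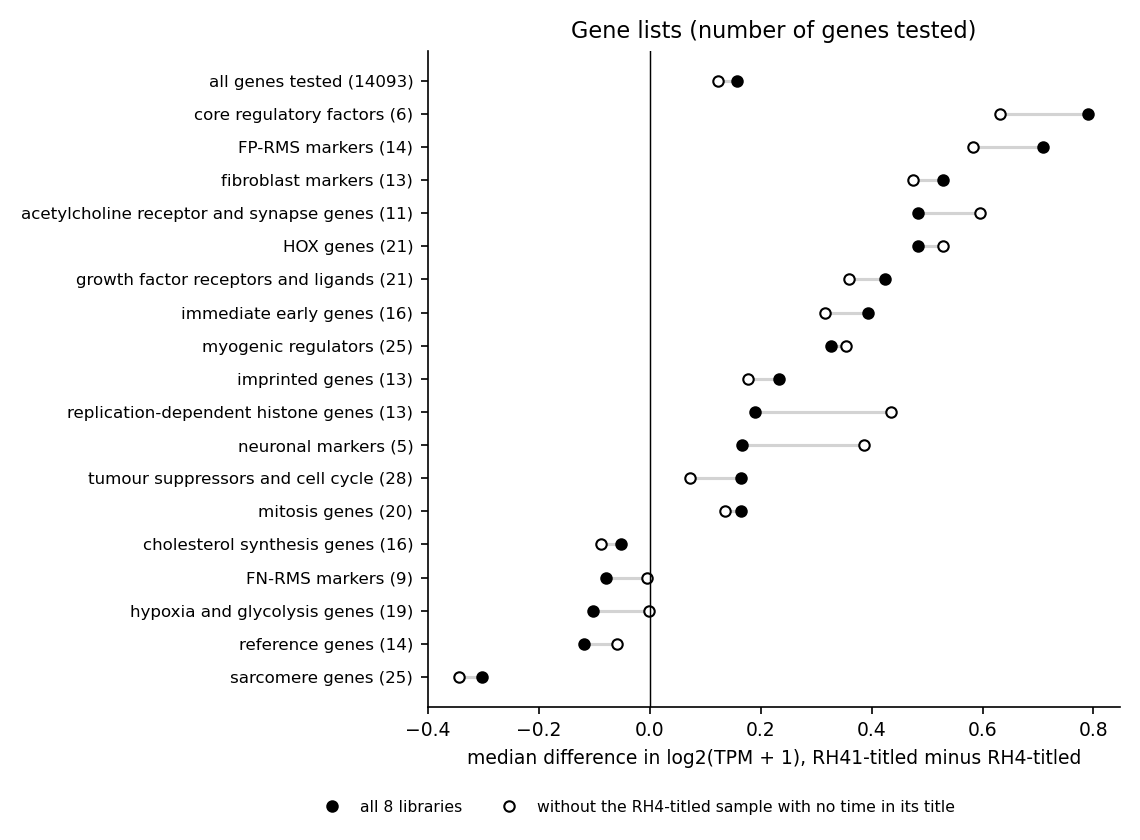
Median difference in log2(TPM + 1), RH41-titled minus RH4-titled, over the tested genes of each list (number in brackets; lists with at least 5), with all 8 libraries (filled) and without the RH4-titled control with no time in its title (open). The core regulatory factors lie at 0.79, the sarcomere genes at -0.30 and all genes at 0.16.

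Receptors for growth factors gave 5 calls higher and none lower among 21 tested genes (median 0.42), against 3.12% higher and 1.87% lower over all genes. The receptor kinase ERBB3 had 83.8 to 88.7 TPM against 18.2 TPM in the plain-title control and 27.7 to 33.8 TPM in the time course (1.66 ± 0.24, adjusted p = 0.0112), and its partner ERBB2 had 17.2 to 19.8 TPM against 2.41 to 6.81 TPM (1.65 ± 0.36, adjusted p = 0.0351). FGFR3 had 11.8 to 13.4 TPM against 1.99 to 3.57 TPM (1.88 ± 0.20, adjusted p = 0.00455). The other calls were the ephrin receptor EPHA4 (54.6 to 56.8 TPM against 15.3 to 28.1 TPM), lost without the plain-title control at 0.98 ± 0.05, and the Wnt receptor ROR2 (2.79 to 3.31 TPM against 0.170 to 0.355 TPM). The ligand FGF8 had 168 to 203 TPM against 23.4 TPM in the plain-title control and 102 to 120 TPM in the time course and was not called. None of the 28 tumour suppressor and cell cycle genes was called with limma, with or without the plain-title control (median 0.16, and 0.07 without it), and CDKN2A, the p16 and ARF locus, was expressed in all 8 at 49.0 to 142 TPM.

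HOX genes, which record position along the body axis, had 2 calls higher and none lower among 21 tested (median 0.48), against 3.12% higher over all genes. HOXC10 had 11.6 to 12.3 TPM against 4.89 to 6.15 TPM (1.03 ± 0.14, adjusted p = 0.010) and HOXC9 had 7.87 to 10.3 TPM against 3.02 to 4.49 TPM (1.00 ± 0.18, adjusted p = 0.0203). The most abundant HOX gene of both sets was HOXB7, at 39.9 to 47.5 TPM against 19.9 to 24.3 TPM. HOXB7 was called only without the plain-title control (1.03 ± 0.07). That made 3 calls higher among the 21, against 3.95% of all genes.

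Matrix and mesenchymal genes, listed as fibroblast markers, are also expressed by muscle precursors. Among 13 tested, 3 were called higher and none lower (median 0.53), against 3.12% higher over all genes. Without the plain-title control 5 were called higher, against 3.95% of all genes. With all 8 controls the calls were CD44, which the on and off rule had already chosen, COL1A1 and COL6A2. COL6A2, a chain of collagen VI, had 200 to 216 TPM against 79.8 to 96.1 TPM (1.18 ± 0.10, adjusted p = 0.00279). The fibronectin gene FN1 was the most abundant, at 2709 to 2789 TPM against 2183 TPM in the plain-title control and 1218 to 1384 TPM in the time course. It was called only without the plain-title control (1.07 ± 0.05), as was COL1A2 (1.08 ± 0.15). COL1A2, the partner chain of COL1A1, stayed at 1.80 to 2.78 TPM against 0.514 to 1.195 TPM. The fibroblast gene LUM was at 0.475 TPM or less in all 8.

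Among genes that follow the state of a culture, JUN (376 to 392 TPM against 167 to 246 TPM, 1.01 ± 0.17, adjusted p = 0.0177) and KLF4 (36.6 to 43.3 TPM against 11.1 to 21.3 TPM, 1.32 ± 0.25, adjusted p = 0.0238) were the 2 of 16 immediate early genes that were called higher. Of 19 genes of hypoxia and glycolysis, ADM was called higher and PGK1, on chromosome X, lower. Over all genes 3.12% were called higher and 1.87% lower. None of 16 cholesterol synthesis genes, 13 replication-dependent histone genes or 20 mitosis genes was called with limma. The mitosis genes had a median of 0.16, equal to that of all genes, and MKI67 had 163 to 168 TPM against 60.7 TPM in the plain-title control and 135 to 167 TPM in the time course. Without the plain-title control 1 cholesterol and 2 histone genes were called higher, against 3.95% of all genes. Of 14 reference genes the 2 called were HPRT1 and PGK1, both on the long arm of X, whereas GAPDH had 3199 to 3323 TPM against 2620 to 3135 TPM (0.19 ± 0.09, adjusted p = 0.209). Of 15 neuronal markers, 10 stayed below 1 TPM in all 8 controls and 5 were tested. TUBB3 alone was called, as higher, at 29.1 to 31.7 TPM against 10.6 to 17.2 TPM. In the treated samples its difference was -0.68 ± 0.58 and was not called. NCAM1 (107 to 198 TPM), L1CAM (69.2 to 186 TPM) and UCHL1 (45.7 to 86.7 TPM) were abundant in all 8 controls. The cancer-testis genes were silent: 54 of 55 stayed below 1 TPM in all 8 controls.

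Between 0.2% and 0.1% DMSO within the RH41-titled set, with 2 libraries each, 0 genes (0%) were called with limma, and 1166 of 14093 had an unadjusted p below 0.05. The variance between the concentrations was 3.55 times that of counting noise, so a count of 0 does not show that they were alike. A fit with replicates as a block also called 0, with 1746 at that level.

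The whole set of baseline differences was then read in the treated samples, where 1028 genes (7.29%) were higher and 505 (3.58%) lower in the RH41-titled set. Of the 440 genes called higher in solvent, 424 had the same sign, 255 were called higher and none was called lower. Of the 263 called lower, 262 had the same sign, 177 were called lower and none was called higher. With the 5 HDAC-directed compounds alone the genes called again were 92 and 93. A gene not called again was CCDC140, lower in solvent (-2.36 ± 0.38) and at -0.75 ± 0.44 in the treated samples (adjusted p = 0.173). Compounds differ between the titles, so drug effects are part of the treated comparison. The treated samples also share the experiments of their controls, so the comparison does not replicate the title difference.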

How the data were processed

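RNA-seq was analysed from one table per sample. The values are TPM as deposited; per the methods, the authors used STAR for alignment to hg19, then RSEM, and the submitters' notes name STAR and edgeR. Whole reads followed from the TPM steps for 100% of 23645 genes (tolerance 0.01 read) and describe depth. Samples were grouped by title. Values were analysed as log2(TPM + 1), so differences of low genes are understated. Genes reaching 1 TPM in at least 2 controls were tested with limma 3.58.1 (trend; R 4.3.3) and Benjamini-Hochberg adjustment, log2 values of the RH41-titled libraries being averaged per DMSO concentration (2 units against 4). Calls needed a difference of 1 or more and an adjusted p under 0.05. Treated samples were compared as means of 20 compounds against 4 samples. The fit was tested on simulated data. Python 3.11.15 did the rest. Coordinates are hg19 from the tables, apart from the RefSeq promoters (GRCh38.p14).

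Named were the 15 most abundant genes of each set, up to 6 members per list with TPM of at least 10 and the largest differences, all core factors, the on and off genes with their nearest misses, and genes of the strongest stretches. The samples, the 22 lists and the rules were chosen with earlier results of these data known. Genes singled out beyond this are marked in the text as chosen after their values were seen, and so were ROR2, ADM, COL1A2, TMSB4X, LUM, CNR1, MKRN3 and DCX. Small RNAs and some other genes are not reported here. Same-numbered RH41-titled libraries shared a flow cell, and their deviations correlated at 0.0876.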

Additional observations from a re-analysis of the deposited data

Results flagged for a closer look

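In 54 sets of 4 controls examined (on and off genes, library measures, list medians and chromosome X, each in both sets), 11 had a sample farther from the rest than Dixon's 95% limit allows, where chance gives about 1 in 20; 7 of the 11 were the plain-title control. It had 33.6 TPM of TAGLN2 and 85.3 TPM of LRRN3, above the time course. Its long-arm X value relative to autosomes was 0.88 against 0.59 to 0.62 in the time course, and its value before the gap was -0.0676 against 0.18 to 0.22. Its median level, in log2(TPM + 1), was 3.93 for fusion-positive markers against 5.16 to 5.25, 4.34 for hypoxia and glycolysis genes against 3.20 to 3.37, and 10.12 for reference genes against 9.40 to 9.48. The 24 h control had the highest median for junction genes (5.18 against 4.72 to 4.79) and for cholesterol synthesis genes (6.75 against 6.30 to 6.36). In the RH41-titled set the second replicate at 0.1% DMSO had 24.0 TPM of CAV1 against 19.9 to 20.4 TPM, and a median of 4.50 for immediate early genes against 4.29 to 4.32. These are values only, and their causes were not tested.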

How the results depend on the processing

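The total of 703 calls between the sets became 797 with a pseudocount of 0.1, 612 with no filter, 482 with a mean TPM of at least 5, 641 after scaling, 983 with the 4 RH41-titled libraries as separate units, 726 with the 0.1% libraries alone and 897 with voom on whole reads. It fell to 0 with only the 6 h RH4-titled controls, which leaves 2 units against 2, and 3032 genes then had an unadjusted p below 0.05. Leaving out 1 library gave 415 (without the 6 h time-course control) to 920 (without the plain-title control), with 463 without the 1 h control; the cause was not tested. Of 72 named genes called, 72 kept their sign in each alternative that held them, and 52 to 72 stayed called when 1 library was left out. Among the recomputed list medians 173 moved by less than the spread between libraries and 7 by more. Named genes below 0.5 in size without a call were not followed. The on and off genes rose from 2 on each side to 6 (on in RH41-titled) and 9 with limits of 5 and 1 TPM, and fell to 0 and 0 with 20 and 0.2 TPM; leaving out 1 library gave 2 to 4 in the RH41-titled direction, with SLCO3A1 among the 4 without the plain-title control, and 2 to 3 in the other. The long-arm X median was -1.32 after scaling and -1.28 to -1.15 with 1 library left out (alternatives chosen after seeing the data). The overlap of the 100 most abundant genes was 89 to 92 with 1 library left out. Treated calls fell from 1533 to 271 with 5 compounds and rose to 2062 with a pseudocount of 0.1. The replicate block could be fitted only for the DMSO concentrations, where 0 genes were called with and without it. Genes with few reads, such as TAGLN2 in the RH41-titled set, are limited by depth.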

Other observations

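A few abundant genes split the RH41-titled controls by flow cell and not by DMSO concentration. IGF2, the fetal growth factor, had 124 and 130 TPM in the first replicates and 67.8 and 69.1 TPM in the second. RPL39, a small ribosomal protein on the long arm of X, had 832 and 829 TPM against 519 and 514 TPM. The RH4-titled controls had 16.1 TPM of IGF2 in the plain-title control and 58.1, 66.2 and 74.95 TPM at 1, 6 and 24 h. The first replicates lay above all 4 of these, and the second replicates lay above all but the 24 h control. For RPL39 all 4 RH4-titled controls, at 1997 to 2056 TPM, lay above both flow cells.

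The plain-title control was also the highest in B2M, the light chain of MHC class I, with 1609 TPM against 477 to 562 TPM in the other 7, and in TMSB4X, with 2047 TPM against 602 to 662 TPM in the time course and 204 to 221 TPM in the RH41-titled controls.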
